A study of Capra hircus with 11 samples.

Results

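SOX2, MYC and KLF4 are 3 of the 4 transcription factors that together turn somatic cells into pluripotent stem cells when they are introduced from outside, and the tables of goat cells described here list them as 3 of 16677 gene symbols. They were chosen by symbol, each matched 1 gene in the tables, and they appear as gene551 (SOX2), gene14322 (MYC) and gene9414 (KLF4). All 3 genes were listed in the tables of cells taken at day 0, day 4 and day 8 of an induction, and MYC and KLF4 were also listed in the tables of 2 kinds of mammary epithelial cells, which did not list SOX2.

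Goat (Capra hircus) cells were profiled by droplet single-cell RNA sequencing with a 10x Genomics kit that captures the 3′ ends of transcripts and counts each captured molecule once by a unique molecular identifier (UMI). Ear fibroblasts were measured before induction (BFRTV0d, 3 samples in the labels) and after 4 days (BFRTV4d, 3 samples) and 8 days (BFRTV8d, 2 samples) in an induction medium named BFRTV. CiMECs (1 sample) are cells induced for 8 days and then passaged in mammary epithelial medium, and they are compared here with BFRTV8d and with GMECs (2 samples), naturally derived mammary epithelial cells. The labels name no introduced gene for any group. Strain, age and number of donor animals were not given in the labels used here.

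Each group was deposited as 1 pooled table without a map from cells to samples. There was therefore no replicate and no test, and every interval given is a 95% interval that covers counting error only. The tables hold 10670, 10203 and 10152 barcodes in BFRTV0d, BFRTV4d and BFRTV8d, 5188 in CiMECs and 5641 in GMECs. Levels are CPM values, which bring a gene's UMIs to the same total in each table, here over the UMIs outside ribosomal protein genes, because the BFRTV tables list none of these genes while 74 of them take 25.6% of the UMIs in CiMECs and 35.0% in GMECs. The median UMIs per barcode outside these genes lay between 9089 and 12535. Between 37 and 147 barcode sequences were shared by any 2 tables, and doublets were not removed. Epithelial markers (12 fixed genes such as EPCAM, CDH1 and KRT5, of which 11 were listed) summed to 1145, 5740 and 12636 CPM at days 0, 4 and 8, to 7897 CPM in CiMECs and to 13268 CPM in GMECs. Fibroblast markers (10 genes such as COL1A1, DCN and LUM) summed to 11323, 2431 and 251 CPM at days 0, 4 and 8, to 11.1 CPM in CiMECs and to 0.610 CPM in GMECs. The day-0 cells thus carried the markers of their label, and the cells at day 8 mostly those of epithelium.

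SOX2 is a high-mobility-group transcription factor that keeps pluripotent cells undifferentiated and also acts in neural progenitors and in stratified epithelia such as the esophagus. MYC is a basic helix-loop-helix factor that binds DNA as a dimer with MAX and drives genes of growth, ribosome production and metabolism, and its own mRNA is short-lived and induced by mitogens. KLF4 is a zinc-finger factor of the Krüppel-like family that is known for the barrier function of skin, for arrest of the cell cycle and, in pluripotent cells, for partnership with OCT4 and SOX2.

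The 3 genes followed different courses. SOX2 was nearly undetected before induction and reached 21.2 CPM at day 8. MYC stayed level until day 4 and then reached 279 CPM, and KLF4 passed through a minimum at day 4. In CiMECs both MYC and KLF4 lay below every other table, and SOX2 was not listed. In such summed counts, fewer cells that express a gene and less of its RNA per cell cannot be told apart.

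SOX2 had 15 UMIs in BFRTV0d, 216 in BFRTV4d and 2189 in BFRTV8d. These counts correspond to 0.128 CPM (0.0714 to 0.211) at day 0, 2.02 CPM (1.76 to 2.31) at day 4 and 21.2 CPM (20.3 to 22.1) at day 8. The intervals of the 3 time points did not overlap, and the level was higher at each later time. Relative to day 0 the level was 15.9-fold higher (9.40 to 28.8) at day 4 and 166-fold higher (100.4 to 297) at day 8, and the step between day 4 and day 8 was 10.5-fold (9.10 to 12.1). In the comparison of BFRTV8d with BFRTV0d, 72 of 9317 genes had a larger fold than SOX2. CiMECs and GMECs do not list SOX2. The fewest cells of any gene listed there was 6, and this number was taken as the limit for listing. Up to 6 UMIs (0.0830 CPM in CiMECs and 0.0831 CPM in GMECs) were then taken as the upper bound of SOX2. The bound rests on this assumed limit, and whether SOX2 was left out for another reason was not tested. With SOX2 set at this bound it was 255-fold lower (117 to 696) in CiMECs than in BFRTV8d. The bound assumes 1 UMI in each such cell, whereas the genes listed in exactly 6 cells of CiMECs reached up to 36 UMIs, with a median of 6. The RefSeq table of assembly ARS1.2 gives SOX2 a model of 963 bases, against 5335 bases for MYC and 4760 for KLF4, and the build used for counting is not given in the sources used here. Whether the counting model of SOX2 held its whole 3′ end was not tested, and levels were compared between tables, not between genes.

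MYC had 9807, 8849 and 28864 UMIs at days 0, 4 and 8, with 1093 UMIs in CiMECs and 2316 UMIs in GMECs. Its level was 83.5 CPM (81.8 to 85.1) at day 0, 82.9 CPM (81.2 to 84.6) at day 4 and 279 CPM (276 to 283) at day 8. CiMECs had 15.1 CPM (14.2 to 16.0) and GMECs 32.1 CPM (30.8 to 33.4). Only the levels at day 0 and day 4 overlapped in their intervals, and their ratio, BFRTV4d over BFRTV0d, was 0.993 (0.965 to 1.02). The day-8 level was 3.35-fold higher (3.27 to 3.42) than at day 0 and 3.37-fold higher (3.29 to 3.45) than at day 4. In CiMECs MYC was 18.5-fold lower (17.4 to 19.6) than in BFRTV8d and 2.12-fold lower (1.97 to 2.28) than in GMECs.

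KLF4 had 6187, 1899 and 7878 UMIs at days 0, 4 and 8, with 434 UMIs in CiMECs and 1928 UMIs in GMECs. The corresponding levels were 52.7 CPM (51.4 to 54.0) at day 0, 17.8 CPM (17.0 to 18.6) at day 4 and 76.2 CPM (74.6 to 77.9) at day 8. CiMECs had 6.003 CPM (5.45 to 6.60) and GMECs 26.7 CPM (25.5 to 27.9). No 2 of these intervals overlapped, and the order from low to high was CiMECs, BFRTV4d, GMECs, BFRTV0d and BFRTV8d. KLF4 was 2.96-fold lower (2.81 to 3.12) at day 4 than at day 0, 4.29-fold higher (4.08 to 4.51) at day 8 than at day 4 and 1.45-fold higher (1.40 to 1.50) at day 8 than at day 0. In CiMECs it was 12.7-fold lower (11.5 to 14.0) than in BFRTV8d and 4.45-fold lower (4.01 to 4.95) than in GMECs.

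**Figure D1:**
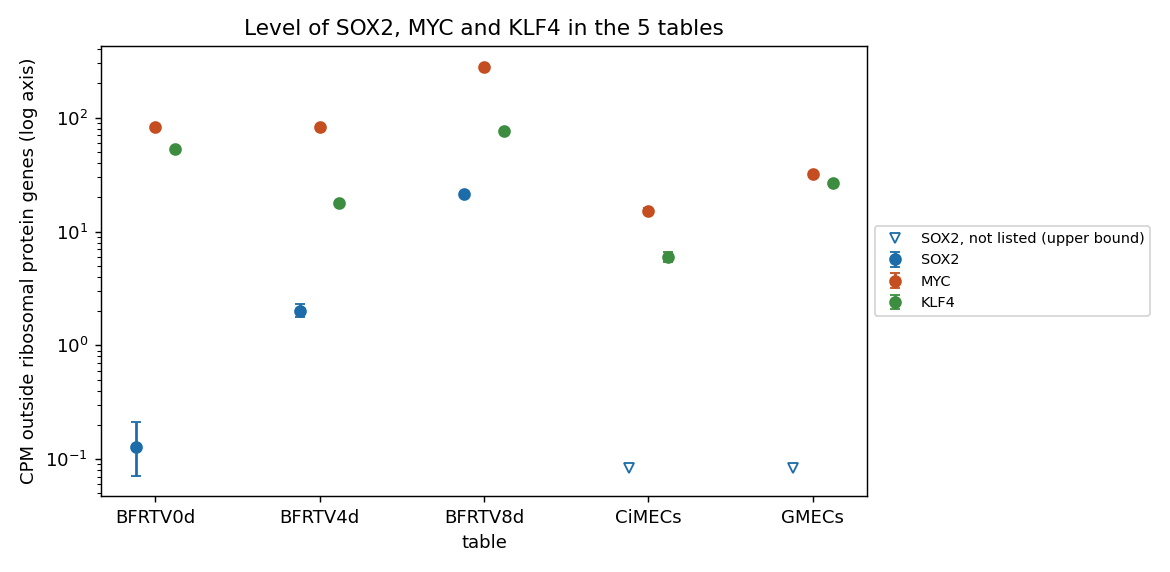
Level of SOX2, MYC and KLF4 in CPM outside ribosomal protein genes (log axis) in each of the 5 tables, with 95% counting intervals, which are mostly smaller than the points. Open triangles give the assumed upper bound of SOX2 in the 2 tables that do not list it. SOX2 was higher at each later day (0.128, 2.02 and 21.2 CPM), MYC had its highest level at day 8 (279 CPM), and KLF4 had 17.8 CPM at day 4 between 52.7 CPM at day 0 and 76.2 CPM at day 8.

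These folds were read against every gene that reached 10 CPM in either table of a comparison, and a 2-fold difference was the limit for a call. In BFRTV4d over BFRTV0d KLF4 was called lower, as were 25.4% of 8949 genes (13.4% were called higher), and MYC was not called, while SOX2 stayed under 10 CPM in both tables and was not counted. In BFRTV8d over BFRTV0d SOX2 and MYC were called higher, as were 19.7% of 9317 genes, and KLF4 was not called. In BFRTV8d over BFRTV4d all 3 genes were called higher, against 10.7% of 8469 genes (7.1% were called lower). In CiMECs over BFRTV8d all 3 were called lower, where 43.3% of 8197 genes were (9.94% were called higher). In CiMECs over GMECs MYC and KLF4 were called lower, where 26% of 7263 genes were (5.53% were called higher).

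The scaling matters for some of these calls, because the median log2 fold of all genes was -0.39 for BFRTV4d over BFRTV0d, -0.29 for BFRTV8d over BFRTV0d, 0.12 for BFRTV8d over BFRTV4d, -0.78 for CiMECs over BFRTV8d and -0.51 for CiMECs over GMECs. Relative to these medians the log2 folds of MYC were 0.38, 2.03, 1.63, -3.43 and -0.58 in the same order, and those of KLF4 were -1.17, 0.82, 1.98, -2.89 and -1.65. Those of SOX2 were 7.66 in BFRTV8d over BFRTV0d, 3.27 in BFRTV8d over BFRTV4d and -7.22 in CiMECs over BFRTV8d, the last with SOX2 at its bound. With TMM factors the median moved by 0.21, 0.15, -0.07, 0.84 and 0.54 and with median-of-ratios size factors by 0.25, 0.19, -0.07, 0.91 and 0.57. MYC in CiMECs over GMECs then had a ratio of 0.668 or 0.682 and was no longer 2-fold apart, also with all UMIs as the total (0.539), and in BFRTV4d over BFRTV0d it had a ratio of 1.15 or 1.17 instead of 0.993. Of the genes called, 34.4% were higher in BFRTV4d over BFRTV0d, against 45.4% and 47.3% with these factors. In CiMECs over BFRTV8d the share was 18.7%, against 52.0% and 55.3% with these factors and 8.45% with all UMIs, and in CiMECs over GMECs it was 17.5%, against 59.5%, 61.8% and 32.1%. The comparison of CiMECs with BFRTV8d also crosses the way the tables were made, which cannot be told apart from the groups. Counts of called genes within the gene lists below use the CPM scaling alone and were not recounted with TMM or median-of-ratios factors.

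The share of cells with at least 1 UMI followed the levels. SOX2 was found in 14 of 10670 cells (0.131%) at day 0, 204 of 10203 cells (2.00%) at day 4 and 1618 of 10152 cells (15.9%) at day 8. When each cell was thinned to 3000 UMIs to set the depth equal, the shares were 0.0281% (0.00580 to 0.0821) at day 0, 0.620% (0.477 to 0.793) at day 4 and 6.01% (5.56 to 6.49) at day 8. Most SOX2-positive cells at day 8 held a single UMI (74.9%), 6.80% held 3 or more, and the highest count in a cell was 7. SOX2 was thus sparse even at its highest level, and a cell without a SOX2 UMI cannot be called a cell without SOX2.

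MYC was found in 48.5%, 49.1% and 85.2% of cells at days 0, 4 and 8, in 15.9% of CiMECs and in 28.5% of GMECs. After thinning, the shares were 19.4%, 21.0% and 53.7% at days 0, 4 and 8, 4.00% (3.43 to 4.63) in CiMECs and 9.42% (8.60 to 10.3) in GMECs. At day 8 more cells were positive and positive cells also held more, with 3 or more MYC UMIs in 54.6% of positive cells, against 19.6% at day 0. Both values rise with the level and are not separate readings. The highest MYC count in a cell, 65 UMIs, was nevertheless in a day-0 cell, and the 1% of cells with the most MYC held 11.9% of its UMIs at day 0 and 4.51% at day 8.

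KLF4 was found in 34.0%, 14.8% and 41.7% of cells at days 0, 4 and 8, in 6.40% of CiMECs and in 24.6% of GMECs. The thinned shares were 13.5%, 5.21% and 18.0% at days 0, 4 and 8, 2.05% (1.64 to 2.52) in CiMECs and 8.57% (7.78 to 9.41) in GMECs. At day 4, 80.5% of the KLF4-positive cells held 1 UMI, against 60.4% at day 0. The day-4 minimum of KLF4 was therefore seen in the share of positive cells and in the UMIs per positive cell. In sparse counts both fall with the level, so they are not separate readings.

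**Figure D2:**
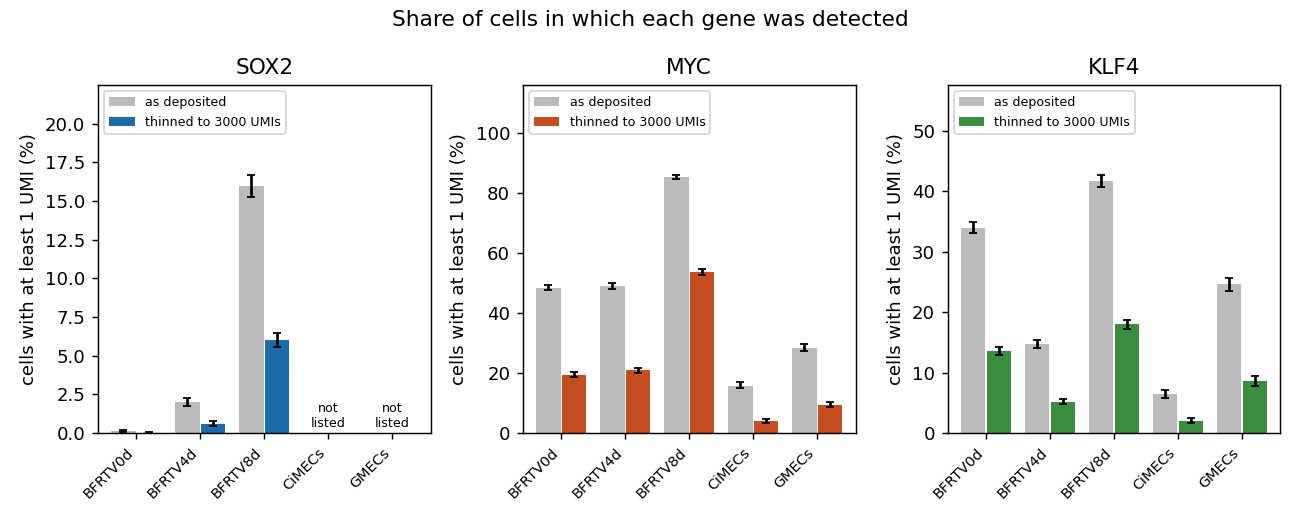
Share of cells with at least 1 UMI of SOX2, MYC and KLF4 by table, as deposited (grey bars) and after thinning each cell to 3000 UMIs outside ribosomal protein genes (coloured bars), with exact 95% binomial intervals. Thinning lowers every share but keeps the order of the tables within each gene, with the MYC shares of day 0 and day 4 close together (19.4% and 21.0% after thinning).

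Because fibroblast-marked cells gave way to epithelial-marked cells over the 8 days, the 3 genes were next read within cells that carried at least 2 UMIs of the epithelial markers only or of the fibroblast markers only after thinning. These groups are ranges of a marker count and not cell types. Cells with epithelial markers only were 369 (3.46%) at day 0, 4452 (43.8%) at day 4 and 9621 (94.8%) at day 8. Cells with fibroblast markers only were 9675 (90.7%), 3493 (34.4%) and 104 (1.03%) at the same days. The groups depend on the thinning. At full depth with the same limit only 10 cells (0.0937%) at day 0, 3069 (30.1%) at day 4 and 9341 (92.0%) at day 8 carried epithelial markers only, and 8516 cells (79.8%) at day 0, 1063 (10.4%) at day 4 and none at day 8 carried fibroblast markers only, while the others carried both. The epithelial-marked cells of day 0 and the fibroblast-marked cells of day 8 were thus mostly or wholly cells with both kinds of marker at full depth, and doublets among them were not removed. Cells near the limit, with 1 or 2 epithelial marker UMIs, were 15.6% of cells at day 0, 24.2% at day 4 and 1.66% at day 8.

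SOX2 was concentrated in the epithelial-marked cells at days 4 and 8. At day 4 it was found in 57 of 4452 epithelial-marked cells (1.28%, 0.971 to 1.66) and in 1 of 3493 fibroblast-marked cells (0.0286%, 0.000725 to 0.159). Median depths were 9489 UMIs in epithelial-marked and 9359 in fibroblast-marked cells at day 4, but 16275 and 9889 at day 0 and 8960 and 12323.5 at day 8, and the part of depth in the differences between the groups was not tested. The levels there were 3.68 CPM (3.14 to 4.28) and 0.116 CPM (0.0315 to 0.296), and the epithelial-marked cells held 77.3% of all SOX2 UMIs of the day. With the groups set at full depth the levels were 3.87 CPM (3.18 to 4.67) and 0.113 CPM (0.00286 to 0.629), and cells with epithelial markers only held 50.9% of the SOX2 UMIs and cells with both markers 48.6%. At day 8 SOX2 had 22.5 CPM (21.5 to 23.4) in epithelial-marked cells and 0.771 CPM (0.0195 to 4.29) in fibroblast-marked cells, the last from 1 UMI. Within epithelial-marked cells SOX2 was 6.10-fold higher (5.21 to 7.19) at day 8 than at day 4, below the 10.5-fold of the whole tables. At day 0 the epithelial-marked cells held only 2 SOX2 UMIs and the fibroblast-marked cells 8. The ratio of day 8 to day 0 within epithelial-marked cells, 77.0, therefore had a wide interval (21.3 to 636). With the groups of day 0 set at full depth, SOX2 had 0 CPM (0 to 42.2) in epithelial-marked and 0.0808 CPM (0.0325 to 0.166) in fibroblast-marked cells.

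MYC was also higher in epithelial-marked cells at each time. It had 127 CPM in epithelial-marked and 77.2 CPM in fibroblast-marked cells at day 0, 120 and 46.0 CPM at day 4, and 291 and 66.3 CPM at day 8. With the groups set at full depth, MYC had 123 CPM in epithelial-marked and 44.3 CPM in fibroblast-marked cells at day 4, and 206 CPM (122 to 326) in the 10 epithelial-marked and 77.4 CPM in the fibroblast-marked cells of day 0. Within epithelial-marked cells the day-4 level over the day-0 level was 0.944 (0.879 to 1.02), and day 8 was 2.43-fold higher (2.36 to 2.51) than day 4. Within fibroblast-marked cells MYC was 1.68-fold lower (1.59 to 1.77) at day 4 than at day 0, and day 8 over day 0 was 0.859 (0.686 to 1.06). The near-equal whole-table levels of MYC at day 0 and day 4 thus stood beside a lower level in fibroblast-marked cells and a larger share of epithelial-marked cells at day 4.

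KLF4 showed its day-4 minimum within both marker groups. In epithelial-marked cells it had 30.9, 18.9 and 77.2 CPM at days 0, 4 and 8, which made day 4 1.63-fold lower (1.40 to 1.90) than day 0 and day 8 4.08-fold higher (3.80 to 4.38) than day 4. In fibroblast-marked cells it had 54.5, 15.9 and 68.6 CPM at the same days, with day 4 3.42-fold lower (3.13 to 3.74) than day 0 and day 8 4.31-fold higher (3.40 to 5.40) than day 4. The day-8 value comes from 104 cells, none of which was in this group at full depth. Among the cells with both markers at full depth KLF4 had 47.3, 17.7 and 71.6 CPM at days 0, 4 and 8. The 2 marker groups set after thinning differed in opposite ways at day 0 and day 4. Epithelial-marked cells had 30.9 CPM and fibroblast-marked cells 54.5 CPM at day 0, against 18.9 and 15.9 CPM at day 4. With the groups set at full depth, KLF4 had 45.8 CPM (12.5 to 117) in the 10 epithelial-marked and 54.6 CPM (53.0 to 56.1) in the fibroblast-marked cells of day 0. These intervals overlapped, as did those of day 4, with 18.9 CPM (17.3 to 20.6) and 14.9 CPM (12.5 to 17.7). Within epithelial-marked cells set after thinning, KLF4 was 2.49-fold higher (2.18 to 2.87) at day 8 than at day 0, more than the 1.45-fold of the whole tables. At full depth such cells had 76.8 CPM at day 8, and the interval of the 10 day-0 cells was too wide to set that ratio against 1.45. Free RNA shared between cells was not measured, and its part in the values of the smaller marker groups was not tested.

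**Figure D3:**
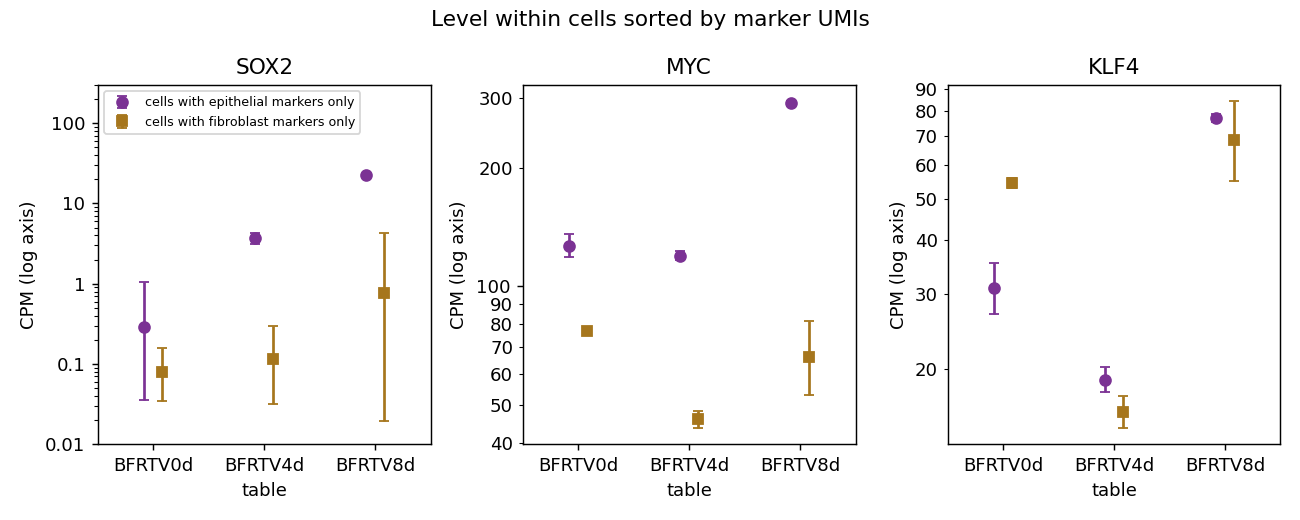
Level of SOX2, MYC and KLF4 in CPM (log axes, scaled separately) in cells with epithelial markers only (circles) and fibroblast markers only (squares) at days 0, 4 and 8, with 95% counting intervals and the groups set after thinning to 3000 UMIs. MYC was higher in epithelial-marked cells at each day and SOX2 at days 4 and 8. At day 0 SOX2 rested on 2 and 8 UMIs, with intervals that overlap. KLF4 had its lowest level at day 4 in both groups.

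Cells were also divided by the UMIs of 20 cell cycle genes, with at least 2 such UMIs after thinning as the limit. At day 0 KLF4 was found in 11.99% of cells above the limit and in 16.1% of cells below it, and at day 8 in 18.7% and 17.9%. MYC was found in 18.8% of cells above the limit (17.9 to 19.8) and in 20.5% below it (19.3 to 21.8) at day 0. The shares were 23.4% (22.0 to 25.0) and 19.8% (18.9 to 20.8) at day 4. They were 54.7% (51.9 to 57.4) and 53.5% (52.5 to 54.6) at day 8. The intervals of MYC overlapped at day 0 and day 8 but not at day 4, where the share was higher above the limit. KLF4 at day 4 was found in 4.93% of cells above the limit and in 5.33% below it, and SOX2 in 0.891% (0.593 to 1.29) and 0.499% (0.348 to 0.693). In CiMECs MYC was found in 6.28% of cells above the limit (4.74 to 8.13) and in 3.44% of cells below it (2.85 to 4.10). KLF4 in CiMECs went with low contractile markers, with 1.56% positive cells (1.18 to 2.02) at 2 or more contractile UMIs and 4.77% (3.26 to 6.70) at fewer. In the other tables the KLF4 intervals of this split overlapped, with 13.9% and 11.8% at day 0. The split also separated MYC at day 4 (19.8% and 25.8%), SOX2 at day 4 (0.426% and 1.44%) and, in the other direction, MYC at day 0 (19.9% and 16.8%). Most contractile UMIs in CiMECs were of TAGLN, which encodes transgelin (3070 CPM), whereas ACTA2 had 31.2 CPM and MYH11 was not listed. Counts of cycle and contractile UMIs also followed the marker groups and the days, and their part in these differences was not tested.

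Per-cell co-detection of the 3 genes was compared with the product of their single shares in the same thinned cells. At day 8, 374 cells (3.69%) held both SOX2 and MYC, against 327 (3.23%) from the product, a ratio of 1.14 (1.03 to 1.26). SOX2 and KLF4 were found together in 98 cells (0.966%), against 109.9 (1.08%) from the product, a ratio of 0.892 (0.724 to 1.09). MYC and KLF4 were found together in 1013 cells (9.99%), against 981 (9.67%), a ratio of 1.03 (0.973 to 1.09). Co-detection of SOX2 with MYC was thus the only pair at day 8 whose interval excluded 1, and by a small margin. All 3 genes were found in 67 cells (0.660%), against 59.0 (0.582%), a ratio of 1.14 (0.881 to 1.44). Without thinning, 620 of 10152 cells (6.11%) held all 3, against 575 from the product, and 601 when the product was taken within 10 strata of depth. SOX2 and MYC were found together in 1464 unthinned cells, against 1388 within these strata. That ratio was 1.06 (1.01 to 1.11), closer to 1 than after thinning.

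Seen from the cells with SOX2, MYC was found in 61.3% of them (57.3 to 65.2) at day 8, against 53.2% (52.2 to 54.2) of cells without SOX2. KLF4 was found in 16.1% of cells with SOX2 (13.2 to 19.2) and in 18.1% of cells without it (17.4 to 18.9), which did not differ beyond counting error. KLF4 was found in 18.6% of cells with MYC (17.6 to 19.7) and in 17.3% of cells without MYC (16.3 to 18.5), with overlapping intervals. Within epithelial-marked cells alone, a restriction chosen after the data were seen, the ratio for SOX2 and MYC at day 8 was 1.12 (1.01 to 1.23) and that for all 3 genes 1.10 (0.857 to 1.40).

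At the earlier times few cells could hold SOX2 with another factor. At day 4, 20 thinned cells held SOX2 and MYC, against 13.2 from the product, a ratio of 1.51 (0.926 to 2.34), and within epithelial-marked cells 19 cells were found against 16.7, a ratio of 1.14 (0.687 to 1.78). Without thinning, 146 cells held both, against 105.0 from the product within depth strata, a ratio of 1.39 (1.18 to 1.63), and 31 cells held all 3 genes, against 17.2 within depth strata, a ratio of 1.80 (1.22 to 2.56). MYC and KLF4 had a ratio of 1.16 (0.972 to 1.38) at day 4 and 1.06 (0.946 to 1.19) at day 0. At day 4 their ratio was 1.27 (1.03 to 1.55) within epithelial-marked cells, with 94 cells against 73.9, and 1.08 (1.01 to 1.15) without thinning within depth strata, and both intervals exclude 1. At day 0, 1 thinned cell held SOX2 with MYC, and no thinned cell held SOX2 with KLF4 (0 of 10670 cells, with an exact upper limit of 0.0346%). In GMECs 44 thinned cells held MYC and KLF4, a ratio of 1.16 (0.847 to 1.56), and in CiMECs only 4 cells did.

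**Figure D4:**
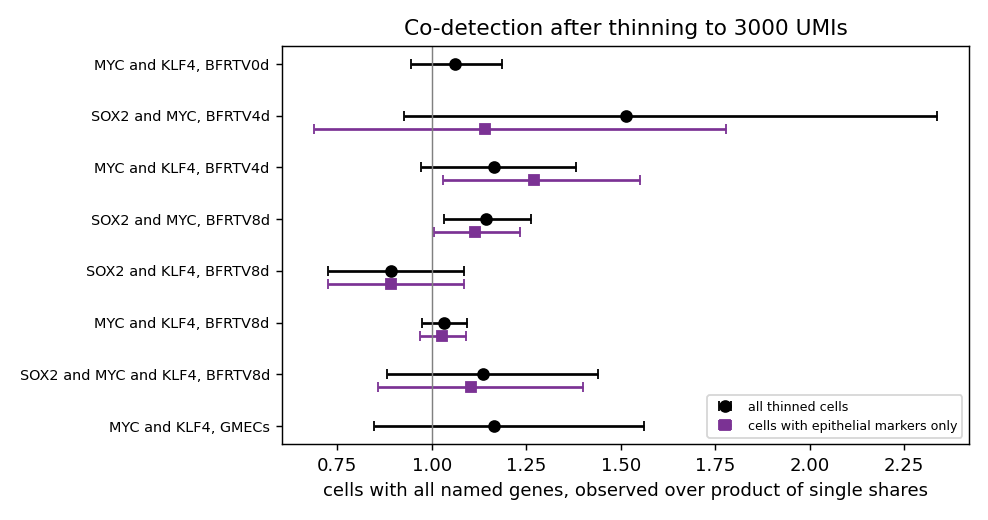
Cells with all named genes over the number expected from the product of the single shares, in cells thinned to 3000 UMIs, for each combination with at least 5 expected cells (circles, with exact 95% binomial intervals of the observed share). Squares give the ratio within cells with epithelial markers only at days 4 and 8. Most intervals include 1, and that of SOX2 and MYC at day 8 lies between 1.03 and 1.26.

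Most thinned cells held none of the 3 genes in every table but BFRTV8d. The share without any of them was 69.8% at day 0, 74.7% at day 4 and 36.3% at day 8, 94.0% in CiMECs and 82.9% in GMECs. At day 8 the commonest combination was MYC alone (40.7%), followed by MYC with KLF4 without SOX2 (9.33%) and KLF4 alone (7.73%). SOX2 alone was found in 2.02% of cells and SOX2 with MYC but not KLF4 in 3.03%.

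Depth within BFRTV8d went with these levels in different directions. When its cells were divided into 4 equal parts from shallow to deep, SOX2 had 29.8, 28.5, 21.7 and 14.0 CPM and MYC 347, 320, 284 and 230 CPM, whereas KLF4 had 71.0, 66.7, 72.4 and 85.5 CPM. SOX2 and MYC were therefore lowest in the deepest cells and KLF4 highest. Thinning does not remove this shared direction of SOX2 and MYC, and its part in their co-detection after thinning was not tested. The part of depth in the comparisons between tables was not tested beyond the thinned shares above.

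The fourth factor of the classical set, POU5F1, which encodes OCT4, was not among the listed genes, nor were NANOG and LIN28A. Of 22 fixed core pluripotency genes, 6 were listed in at least 1 table: SOX2, TFCP2L1, DNMT3B, SALL4, GDF3 and ESRRB. TFCP2L1, a transcription factor of naive pluripotent cells that is also found in epithelia such as the kidney, had 0.247, 19.0 and 66.8 CPM at days 0, 4 and 8, 8.13 CPM in CiMECs and 27.4 CPM in GMECs. DNMT3B, a de novo DNA methyltransferase, had 0.826, 1.70 and 1.58 CPM at days 0, 4 and 8, 0.858 CPM in CiMECs and 1.33 CPM in GMECs. SALL4, a zinc-finger factor of pluripotent cells, had 0.170 CPM at day 0 and 0.135 CPM at day 8, the growth factor gene GDF3 0.600 CPM at day 8, and the nuclear receptor gene ESRRB 0.346 CPM in CiMECs. Apart from SOX2 and TFCP2L1, no listed member reached 2 CPM in any table.

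In the SOX family, SOX2 changed together with relatives of higher counts. Of 7 SOX genes compared between BFRTV8d and BFRTV0d, 5 were called higher, SOX2 itself among them, and none was called lower, against 19.7% and 28% of all genes. The median log2 fold, SOX2 included, was 2.97 beside -0.29 for all genes. SOX4, a factor of progenitor cells and epithelial tumors, was 23.8-fold higher, with 1524 CPM in BFRTV8d and 64.2 CPM in BFRTV0d. SOX15, whose product is close to SOX2 in its DNA-binding domain, was 9.59-fold higher (82.1 CPM in BFRTV8d and 8.55 CPM in BFRTV0d). SOX9, a factor of chondrocytes and of epithelial progenitors including those of the mammary gland, was 7.86-fold higher (425 CPM in BFRTV8d and 54.2 CPM in BFRTV0d). In CiMECs over BFRTV8d, 6 of 6 SOX genes compared were lower, with a median of -3.36 beside -0.78, where 43.3% of all genes were lower. The 6 included SOX2 at its bound, and SOX4 with 233 CPM in CiMECs and 1524 CPM in BFRTV8d.

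In the KLF family, 4 of 9 genes compared were at least 2-fold lower and 1 higher in BFRTV4d over BFRTV0d, against 25.4% and 13.4% of all genes. The lower ones were KLF2, KLF4, KLF6 and KLF16. KLF2, a factor of quiescent lymphocytes and endothelium, was 9.77-fold lower, with 2.54 CPM in BFRTV4d and 24.8 CPM in BFRTV0d. KLF6, a broadly expressed member, was 2.35-fold lower, with 93.9 CPM in BFRTV4d and 221 CPM in BFRTV0d. The median log2 fold of the family, -0.48, lay close to the -0.39 of all genes. In BFRTV8d over BFRTV4d, 4 of 8 were higher (KLF4, KLF5, KLF6 and KLF11) and none lower, against 10.7% and 7.1% of all genes. KLF5, a factor of proliferating epithelium, was 4.13-fold higher (127 CPM in BFRTV8d and 30.7 CPM in BFRTV4d), close to the 4.29-fold of KLF4. KLF2 did not return and had 0.610 CPM at day 8. In CiMECs 7 of 8 KLF genes compared, KLF4 among them, were lower than in BFRTV8d (median -3.20 beside -0.78), where 43.3% of all genes were lower. Against GMECs 5 of 8 were lower, again with KLF4 (median -1.40 beside -0.51), where 26% of all genes were lower.

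In the network around MYC, MAX, its obligate partner, had 185, 86.1 and 157 CPM at days 0, 4 and 8, 64.7 CPM in CiMECs and 87.6 CPM in GMECs. MXI1, a MAX partner that opposes MYC, was 8.84-fold higher in BFRTV8d (22.3 CPM) than in BFRTV0d (2.52 CPM), and MXD1, of the same kind, was 2.31-fold higher (13.5 CPM in BFRTV8d and 5.85 CPM in BFRTV0d). MXD4, a further member of this kind, was called lower (16.6 CPM in BFRTV8d and 33.3 CPM in BFRTV0d), so that 3 of 8 genes compared in the network, MYC among them, were higher and 1 was lower, against 19.7% and 28% of all genes. The other MYC genes, named after their values were seen, had up to 7.34 CPM (MYCL) and up to 0.187 CPM (MYCN).

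**Figure D5:**
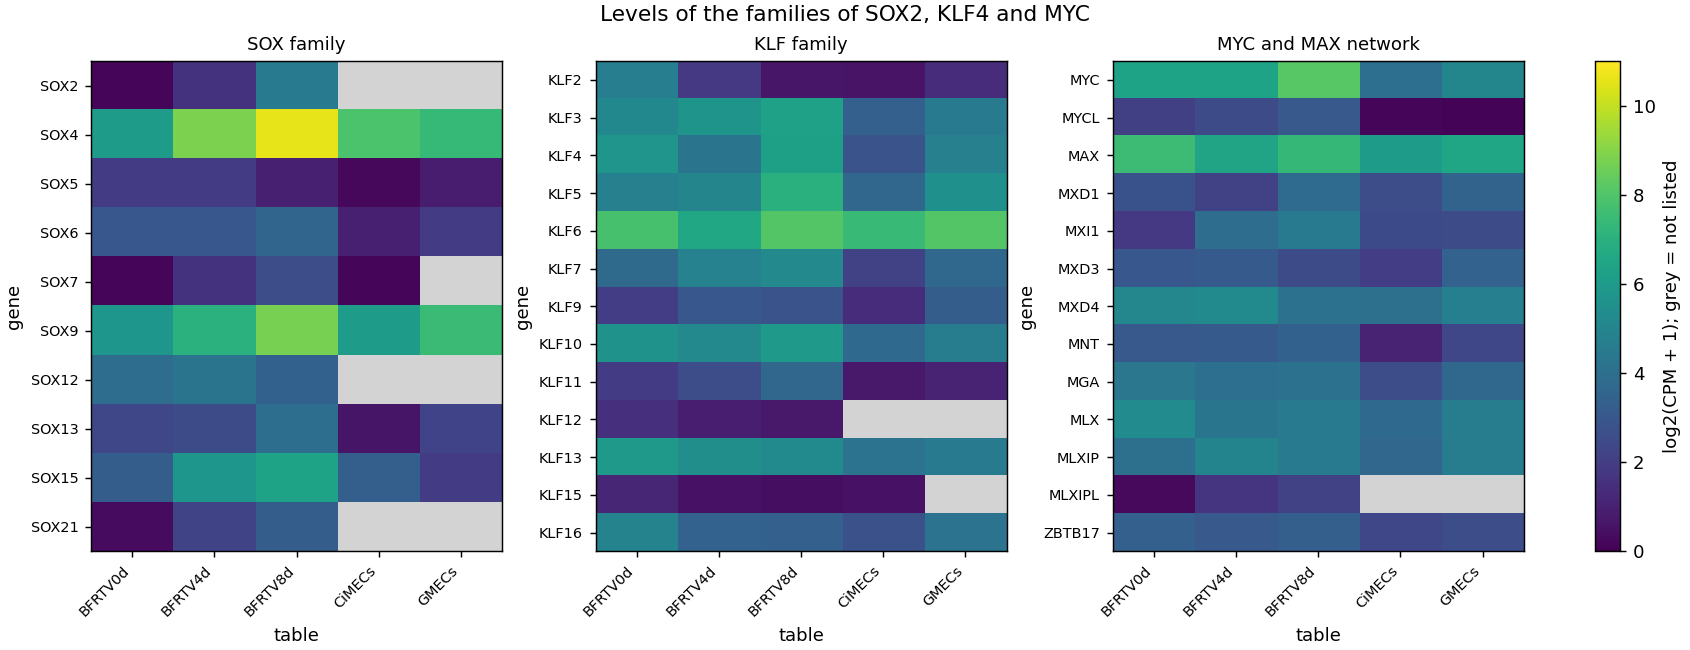
Levels of the SOX family, the KLF family and the MYC and MAX network as log2(CPM + 1) in the 5 tables, for genes with at least 1 CPM in a table (grey, not listed in that table). SOX4 and SOX9 were highest in BFRTV8d together with SOX2, KLF4 and KLF6 had their lowest BFRTV level at day 4, and MYC had its highest level in BFRTV8d.

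Known target genes of MYC did not follow it across the days of induction in the summed tables. Of 32 fixed targets 29 were compared, and in BFRTV8d over BFRTV0d 16 were at least 2-fold lower, as were 28% of all genes, and none higher, with a median log2 fold of -1.30 beside -0.29 for all genes. SRM, the spermidine synthase, was 15.5-fold lower (15.3 CPM in BFRTV8d and 236 CPM in BFRTV0d), CAD, an enzyme of pyrimidine synthesis, 8.98-fold lower (2.12 and 19.0 CPM in the same tables), and ODC1, the ornithine decarboxylase, 5.48-fold lower (58.5 and 321 CPM). BOP1, a factor of ribosome assembly, was 6.56-fold lower. Between BFRTV4d and BFRTV0d, where MYC was level, 19 of 29 were lower and none higher, against 25.4% and 13.4% of all genes, with a median of -1.37 beside -0.39. Between BFRTV8d and BFRTV4d, where MYC was 3.37-fold higher, none of 25 was called in either direction and the median was -0.09 beside 0.12. Cell cycle genes moved the same way as the targets in BFRTV8d over BFRTV0d, with 17 of 20 lower and none higher. Their steps differed from those of the targets. In BFRTV4d over BFRTV0d 7 of 20 were lower, with a median of -0.61 beside -0.39. In BFRTV8d over BFRTV4d 14 of 18 were lower, with a median of -1.41 beside 0.12. None was higher in either step. The part of cycling cells in the target genes was not tested. In CiMECs over GMECs, where MYC was called lower, 14 of 28 targets were lower and 1 higher, against 26% and 5.53% of all genes. Their median there was -1.04 beside -0.51. With TMM or median-of-ratios factors MYC was no longer 2-fold apart in this comparison, and the targets were not recounted with them. In CiMECs over BFRTV8d, where MYC was also lower, 4 of 25 targets were lower and 2 higher, against 43.3% and 9.94% of all genes. The median there was -0.39 beside -0.78.

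Across the cells of BFRTV8d the targets stood differently. In cells with MYC, 25 of 25 targets with at least 10 CPM had a higher level than in cells without MYC, with a median ratio of 1.08, beside 56.6% of 7856 genes above 1 and a median of 1.01 for all genes. In cells with SOX2, 22 of 25 were above 1 with a median of 1.06, and in cells with KLF4 12 of 25 with a median of 0.996. The targets in no case reached a 1.5-fold difference. A higher level in cells with MYC was not particular to the targets. There, 11 of 11 epithelial markers (median 1.15), 14 of 16 epithelial transcription factors (1.17) and 15 of 18 early response genes (1.14) were above 1. Of the MYC and MAX network 2 of 7 were (median 0.912). The part of the marker groups in the target ratios was not tested. Fibroblast markers differed far more. Of the 10 fixed markers, the 7 with at least 10 CPM all lay below 1 in cells with SOX2 (median ratio 0.255), MYC (0.285) and KLF4 (0.914). Of all genes, 57.2%, 56.6% and 47.8% lay above 1 in the same order. All 7 were at least 1.5-fold lower with SOX2 and with MYC, but none with KLF4, and the share of all genes at that limit was not counted. Deeper cells are more often positive, and the median depth was 9240 UMIs in cells with MYC and 8266 in cells without, and 10333 in cells with KLF4 and 8416 in cells without.

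MYC and KLF4 are both induced early by growth factors and stress, and most early response genes were also higher at day 8 than at day 4. In BFRTV8d over BFRTV4d 15 of 18 were at least 2-fold higher and 1 lower, with a median of 1.75 beside 0.12, where 10.7% of all genes were higher and 7.1% lower. In CiMECs over BFRTV8d 15 of 18 were lower, with a median of -3.28 beside -0.78, where 43.3% of all genes were lower. In BFRTV4d over BFRTV0d only 3 of 17 were lower and 1 was higher, against 25.4% and 13.4% of all genes, with a median of -0.19 beside -0.39. EGR1, a zinc-finger factor induced within minutes by growth factors, had 80.0, 125 and 701 CPM at days 0, 4 and 8, 19.5 CPM in CiMECs and 58.8 CPM in GMECs. ATF3, a stress-induced factor, had 21.8, 32.1 and 245 CPM at days 0, 4 and 8, 24.4 CPM in CiMECs and 178 CPM in GMECs. IER3 was 4.87-fold lower in BFRTV4d (362 CPM) than in BFRTV0d (1760 CPM), whereas FOS was higher, with 197 CPM in BFRTV4d and 80.5 CPM in BFRTV0d. Cells were released with trypsin before capture, and the part of handling in these genes was not tested.

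Epithelial transcription factors were higher at day 8 as well. In BFRTV8d over BFRTV0d 16 of 16 genes compared were at least 2-fold higher, as were 19.7% of all genes, with a median log2 fold of 4.36 beside -0.29. ZNF750, a factor of epidermal differentiation that acts upstream of KLF4 in human keratinocytes, had 0.613, 13.3 and 98.8 CPM at days 0, 4 and 8, 4.94 CPM in CiMECs and 7.43 CPM in GMECs. ELF5, a factor of mammary alveolar cells, was 169-fold higher, with 38.9 CPM in BFRTV8d and 0.230 CPM in BFRTV0d. In CiMECs over BFRTV8d 16 of 16 were lower, with a median of -3.20 beside -0.78, where 43.3% of all genes were lower, among them TP63, the master factor of basal epithelium, with 0.470 CPM in CiMECs and 133 CPM in BFRTV8d. The lower levels of MYC and KLF4 in CiMECs than in BFRTV8d thus stood beside lower levels of most SOX, KLF, epithelial and early response genes compared.

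The genes whose centred log2(CPM + 1) profile over the 5 tables lay closest to each factor were found among 9787 genes. Nearest to SOX2 were CFI, the complement factor I (distance 0.33), AQP3, a water and glycerol channel of epithelia (0.34), LOC102174022 (0.36), the interferon-induced IFIT2 (0.44) and GNAO1, a G protein subunit (0.48). Nearest to MYC were LOC102178647 (0.54), ZCCHC2 (0.58), the antiproliferative BTG1 (0.60), the small GTPase gene RAP2B (0.61) and FGF13 (0.64). Nearest to KLF4 were LOC106503744 (0.24), LOC102187162 (0.50), ATF4 (0.83), MIDN (0.89) and DDIT3 (0.89), where ATF4 and DDIT3 encode factors of the integrated stress response. LOC106503744 had 53.3, 17.9 and 86.8 CPM at days 0, 4 and 8, 7.44 CPM in CiMECs and 31.5 CPM in GMECs, close to KLF4 in every table. With 5 tables such likeness is a description.

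Across the 10152 cells of BFRTV8d no gene was strongly correlated with any of the 3. The highest Pearson correlation with SOX2 was that of the receptor gene LPAR6 (0.14), with MYC that of FOS (0.21) and with KLF4 that of LOC100861279 (0.19), followed by SFN, an epithelial 14-3-3 protein (0.19), SQSTM1, an autophagy receptor (0.18), and further down DDIT3 (0.17) and the cell cycle inhibitor CDKN1A (0.16). Among the 3 factors the correlation was 0.10 for SOX2 and MYC, -0.03 for SOX2 and KLF4 and 0.0039 for MYC and KLF4. These values share depth and library and are sparse for SOX2, and they are given as a description only.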

How the data were processed

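Single cells of 11 samples in 5 groups were measured. The authors deposited 1 table per group with whole-number UMI counts per gene and barcode, not normalized. Tools credited in the submitters' processing notes are Cell Ranger and FastQC 0.10.1, and the genome build is not given in the sources used here. Whether samples of a group are separate cultures or lanes is not stated. Counts were summed per table and scaled to CPM over UMIs outside ribosomal protein genes. CPM intervals are exact Poisson, shares exact binomial and folds exact conditional binomial, all at 95%. A gene not listed was set at the fewest cells of any listed gene, 11 in the BFRTV tables and 6 in the others. Genes with at least 10 CPM in 1 of 2 tables were compared. Cells were thinned to 3000 UMIs, which left out 0, 45 and 8 barcodes in BFRTV0d, BFRTV4d and BFRTV8d, 938 in CiMECs and 961 in GMECs. Named genes are SOX2, MYC, KLF4, up to 4 members per list with the largest fold in a comparison, all listed core pluripotency genes and the nearest profiles. The members and the 16 lists were chosen with earlier results of these data known. Symbols were matched to the RefSeq table of assembly ARS1.2, in which 16296 of 16677 occur. The scripts were tested on simulated data and ran in Python 3.11.15 with numpy 2.4.6, scipy 1.17.1 and pandas 2.3.3, with edgeR 4.0.16 for TMM factors only.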

Additional observations from a re-analysis of the deposited data

How the results depend on the processing

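No paired analysis was possible because each group is 1 pooled table whose cells carry no sample, and for the same reason no replicate could be left out. No direction of a value called 2-fold apart was reversed by any alternative tried. With TMM factors and with median-of-ratios size factors, the ratios of MYC were 1.15 and 1.17 for BFRTV4d over BFRTV0d, 3.69 and 3.77 for BFRTV8d over BFRTV0d, 3.22 and 3.22 for BFRTV8d over BFRTV4d, 0.0903 and 0.0942 for CiMECs over BFRTV8d, and 0.668 and 0.682 for CiMECs over GMECs. Those of KLF4 were 0.390 and 0.399 for BFRTV4d over BFRTV0d, 1.59 and 1.63 for BFRTV8d over BFRTV0d, 0.131 and 0.137 for CiMECs over BFRTV8d, and 0.318 and 0.325 for CiMECs over GMECs. The same factors gave 1908 and 2039 genes higher and 1760 and 1647 lower for CiMECs over BFRTV8d, where the counts above were 815 and 3546, and 1024 and 1086 higher and 697 and 672 lower for CiMECs over GMECs, against 402 and 1891. With all UMIs as the total, the ratios for CiMECs over BFRTV8d were 0.0403 for MYC and 0.0586 for KLF4 with 431 genes higher, and for CiMECs over GMECs 0.539 and 0.257 with 1028 genes lower. A minimum of 1 CPM gave 2442 genes higher for BFRTV4d over BFRTV0d and 3114 for BFRTV8d over BFRTV0d, 1467 higher and 1330 lower for BFRTV8d over BFRTV4d, 5963 lower for CiMECs over BFRTV8d, and 864 higher and 3222 lower for CiMECs over GMECs. Thinning to 1500 UMIs lowered the shares of MYC to 11.0%, 11.1% and 33.8% at days 0, 4 and 8, 2.25% in CiMECs and 5.09% in GMECs, those of KLF4 to 7.49%, 2.66% and 9.62% at days 0, 4 and 8, 0.904% in CiMECs and 4.29% in GMECs, and those of SOX2 to 0.363% at day 4 and 3.37% at day 8, because fewer UMIs per cell remain. The 24 values recomputed without barcodes under 2000 UMIs, the 21 without the 5% of barcodes with the most UMIs, the 15 with at least 1 or 3 marker UMIs and the 8 within depth strata stayed within their counting intervals or within 1.5 times the count. The limit of 2000 UMIs kept 10670 of 10670, 10202 of 10203 and 10152 of 10152 barcodes in BFRTV0d, BFRTV4d and BFRTV8d. Values that compare only these tables could therefore hardly change under it. The 6 co-detection ratios within epithelial-marked cells, an alternative added after the data were seen, also stayed within their counting intervals. At day 8 these cells were 94.8% of the thinned cells, so the ratios there could differ little. Depth limits SOX2 most, with 15 UMIs at day 0. Why CiMECs and GMECs do not list it was not tested.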

Other observations

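Squamous differentiation genes, a program in which KLF4 acts in skin, were counted as a further list. In BFRTV8d over BFRTV0d 3 of its 5 compared genes were called higher and 1 was called lower, against 19.7% and 28% of all genes. Involucrin (IVL), a precursor of the cornified envelope, had 0.715, 9.03 and 63.2 CPM at days 0, 4 and 8 and 60.8 CPM in CiMECs, against 25.4 CPM in GMECs. KRT6A, a keratin of activated keratinocytes, was 5.86-fold higher in BFRTV8d (554 CPM) than in BFRTV0d (94.7 CPM) and had 115 CPM in CiMECs. Loricrin (LOR) was 32.5-fold lower in BFRTV8d (0.358 CPM) than in BFRTV0d (11.7 CPM). The MYC target gene CCND2, a D-type cyclin, went against MYC in CiMECs, with 399 CPM in CiMECs and 20.6 CPM in GMECs, a 19.3-fold higher level, while MYC was 2.12-fold lower there. CCND2 was an exception with the CPM scaling: of 28 targets compared it was the only 1 called higher and 14 were called lower, against 5.53% and 26% of all genes. SRM, another target, was 4.24-fold higher in CiMECs (64.8 CPM) than in BFRTV8d (15.3 CPM). In that comparison 2 of 25 targets were higher and 4 lower, against 9.94% and 43.3% of all genes.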
